A study of Rattus norvegicus with 6 samples.

Results

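Elastic fibre and microfibril genes were followed in cultured basal cells of the rat trachea, the stem cells of the airway lining, in EpiX medium and in BEGM, a bronchial epithelial growth medium. The list holds 10 genes: Eln, the fibrillin gene Fbn1, the fibulin genes Efemp1, Efemp2, Fbln1, Fbln2 and Fbln5, and the microfibril-associated genes Mfap2, Mfap4 and Mfap5. The genes were selected by their symbols as a family, with their levels in these arrays already known. Of the 10, 9 were measured among 15037 named genes, each by 1 probe set, so that choosing the brightest probe set per gene excluded none of their probe sets. Fbln2 had no named probe set and was not analysed here. All differences between the media for these genes are a description, and the adjusted p-values beside them come from a fit to all genes and support no claim about the list.

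Cells came from tracheal scrapings of 12-week-old male wild-type Sprague Dawley rats. They were kept as 3 lines, each from a group of 3 rats, and every line was divided between the EpiX and BEGM media. RNA was taken after 8 days, giving 3 EpiX arrays and 3 BEGM arrays, which are called here by the sample numbers 1, 2 and 3 of the labels. The array titles differ from these numbers, since titles of the number 2 arrays carry a 3 and titles of the number 3 arrays carry none. Levels are log2 signals as deposited, with the base of the logarithm taken as 2, and a fold between media is 2 raised to the difference. No detection call was used here, so a gene could not be called absent. A level below 4.50, the limit under which the means of the dimmest 25% of genes lay, is called dim.

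Elastic fibres give stretchable tissues their recoil. Elastin monomers are gathered on a scaffold of fibrillin microfibrils, aided by fibulins that bind both elastin and the lysyl oxidases that crosslink it, and the same microfibrils hold latent TGF-beta through its binding proteins. In the airway wall these fibres lie beneath the epithelium and are made chiefly by fibroblasts and smooth muscle cells, while fibulins and fibrillin are also found in basement membrane zones.

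EpiX cultures had lower levels than BEGM cultures of Efemp2, by 4.68 on the log2 scale, and it was the 1 measured member that fell by limma's test over all genes. Fbn1 and Fbln5 lay lower on every EpiX array than on any BEGM array without passing that test, and Efemp1 lay higher on every EpiX array. The levels of Eln and Mfap4 differed mainly on BEGM array 3, and those of Fbln1, Mfap2 and Mfap5 overlapped between the media. In all, 1 of 9 measured members was called lower in EpiX, beside 3.15% of all genes, and 0 of 9 were called higher by limma, beside 2.63% of all genes. At an unadjusted p under 0.05, 3 members were lower and 1 was higher, beside 11.4% and 11% of all genes. The median difference over the 9 members was -1.60, beside 0.0022 over all genes, and it was -0.32 without BEGM array 3. Centring of the arrays on their medians moved the median over all genes to 0.13 and kept the signs of the members' differences. In bulk RNA, fewer cells of a type and less RNA per cell cannot be told apart.

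**Figure D1:**
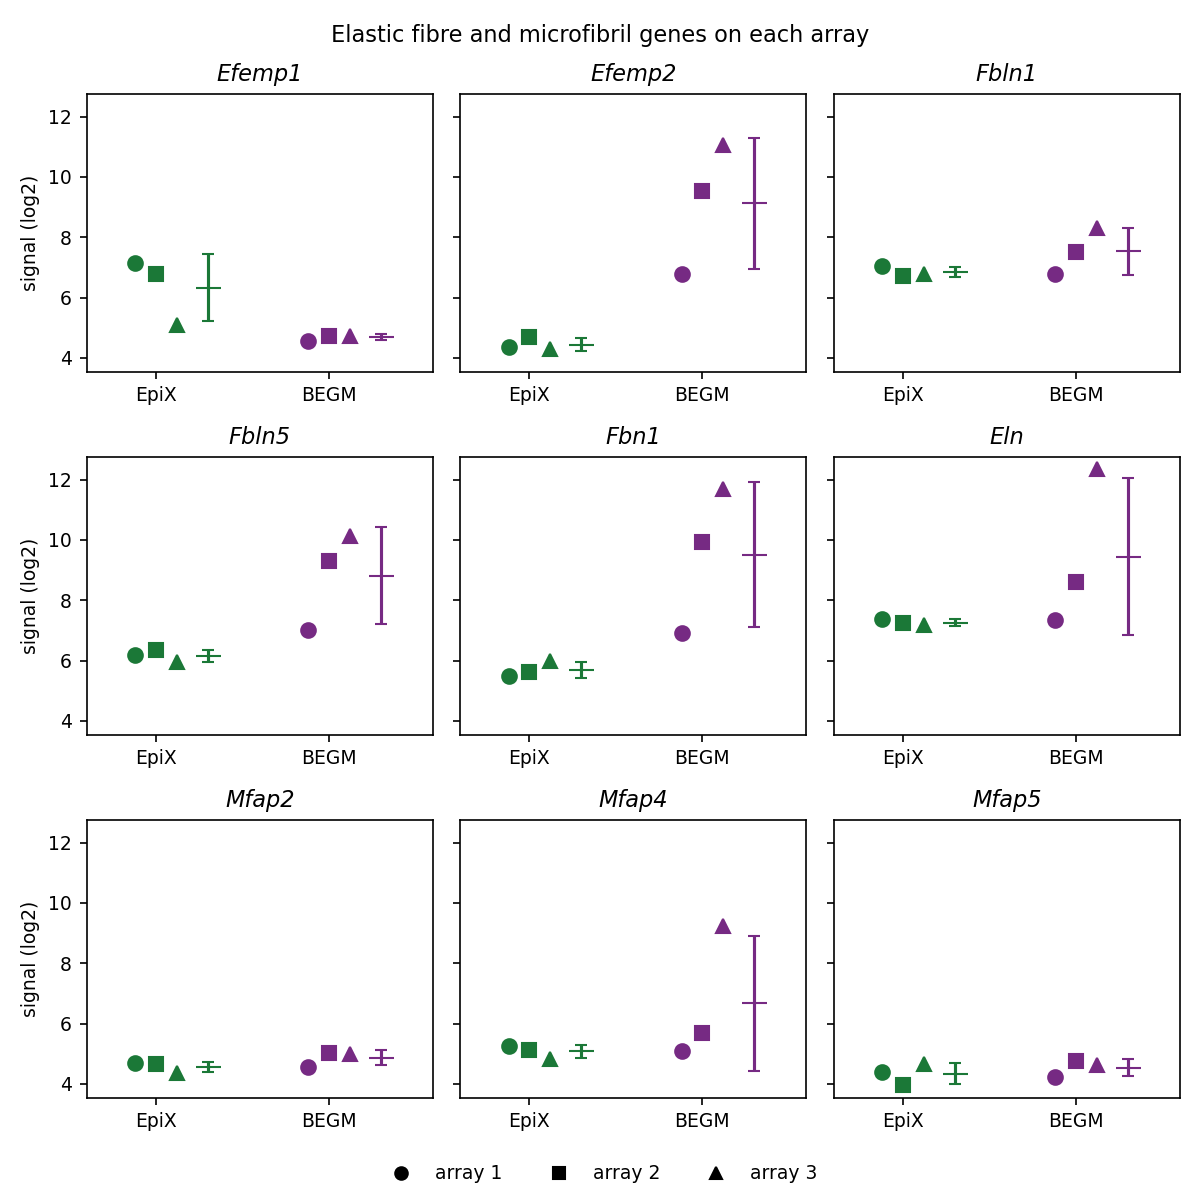
Signal (log2) of the 9 measured elastic fibre and microfibril genes on each array, with EpiX at the left and BEGM at the right of each panel. Symbols mark arrays 1, 2 and 3 of each medium, and bars show the mean ± SD over 3 arrays. Efemp2, Fbn1 and Fbln5 lie low on all EpiX arrays and spread widely over the BEGM arrays, whereas Efemp1 spreads over the EpiX arrays.

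The fibulins were the most varied group. Efemp2 encodes a fibulin that is required for elastic fibre assembly and that brings lysyl oxidase to elastin. Its level was 4.35, 4.69 and 4.28 on the EpiX arrays 1, 2 and 3, against 6.77, 9.55 and 11.05 on the BEGM arrays. The groups did not overlap, and EpiX arrays 1 and 3 were dim while BEGM array 1 was the lowest of its medium. The mean was 4.44 ± 0.22 in EpiX and 9.12 ± 2.17 in BEGM (SD, n = 3 each), a difference of -4.68 ± 0.96 (SE; 95% interval -6.96 to -2.41) with an adjusted p of 0.0406 by limma. The call was lost without any 1 of the arrays other than BEGM array 1, with adjusted p-values of 0.0535 without BEGM array 3 and 0.156 without BEGM array 2, although the difference stayed between -5.86 and -3.64 in all settings.

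Fbln5 encodes a fibulin that binds elastin, integrins and lysyl oxidase-like enzymes. Its level was 6.17, 6.35 and 5.94 on the EpiX arrays, against 7.02, 9.29 and 10.12 on the BEGM arrays. The groups did not overlap, and as for Efemp2 the smallest gap to EpiX was that of BEGM array 1. The difference was -2.66 ± 0.72 (SE; 95% interval -4.36 to -0.95), a 6.31-fold lower signal that did not pass (limma adjusted p = 0.0833).

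Efemp1 encodes a fibulin of basement membranes and connective tissue, and was the 1 measured member with a positive difference. Its level was 7.15, 6.77 and 5.08 on the EpiX arrays, against 4.56, 4.73 and 4.74 on the BEGM arrays. The BEGM arrays lay within 0.18 of each other and just above the dim limit. EpiX array 3 lay far below the other EpiX arrays and just above BEGM. The difference was 1.65 ± 0.50 (SE; 95% interval 0.47 to 2.84) and did not pass (limma adjusted p = 0.112). Without EpiX array 3 it was 2.28 ± 0.19 and passed (limma adjusted p = 0.0107). It did not pass without EpiX array 1 or 2 (adjusted p = 0.274 and 0.323), or without any 1 of the BEGM arrays (0.122 to 0.264). Between same-numbered arrays Efemp1 differed by 2.59, 2.03 and 0.33 for the numbers 1, 2 and 3.

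Fbln1, a fibulin of basement membranes and of elastic fibre cores, differed less. Its level was 7.03, 6.71 and 6.77 on the EpiX arrays, against 6.78, 7.50 and 8.31 on the BEGM arrays. BEGM array 1 lay among the EpiX arrays, and the difference of -0.69 ± 0.36 (SE) did not pass (limma adjusted p = 0.32). It was -0.30 ± 0.25 without BEGM array 3 and -1.07 ± 0.27 without BEGM array 1.

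The sequences before the start sites of Efemp2 and Fbln5, which were low together on all EpiX arrays, and of Efemp1, whose difference had the other sign, are shown for comparison. They are the 250 bases before the RefSeq start in build GRCr8, read 5′ to 3′ on the gene's strand. Capitals mark matches on either strand to 6 motifs. These are the GC box GGGCGG, the Smad-binding core CAGAC, and the AP-1-like pattern TGANTCA, in which N is any base. The others are the TEAD site CATTCC, the E-box CACCTG of Snail and Zeb repressors, and the TATA box TATAAA.
Efemp2, chr1:212211472-212211721, plus strand: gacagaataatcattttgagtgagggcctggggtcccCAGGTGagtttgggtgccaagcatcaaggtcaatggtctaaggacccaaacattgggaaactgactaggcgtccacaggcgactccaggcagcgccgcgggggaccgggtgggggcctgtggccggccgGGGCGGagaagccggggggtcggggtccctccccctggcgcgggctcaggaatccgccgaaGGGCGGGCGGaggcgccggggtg
Fbln5, chr6:126742707-126742956, minus strand: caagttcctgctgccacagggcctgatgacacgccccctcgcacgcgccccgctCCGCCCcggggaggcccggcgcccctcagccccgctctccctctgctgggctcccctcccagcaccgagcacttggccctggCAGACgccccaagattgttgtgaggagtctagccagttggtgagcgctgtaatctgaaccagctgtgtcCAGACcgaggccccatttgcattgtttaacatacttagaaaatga
Efemp1, chr14:106811614-106811863, plus strand: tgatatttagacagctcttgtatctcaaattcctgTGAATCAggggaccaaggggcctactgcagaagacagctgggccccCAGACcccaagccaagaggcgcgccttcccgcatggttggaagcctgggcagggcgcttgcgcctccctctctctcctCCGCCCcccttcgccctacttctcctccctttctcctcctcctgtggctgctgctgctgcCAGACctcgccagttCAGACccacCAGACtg

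The Efemp2 window held 3 GC boxes, of which a pair overlapped, 1 CACCTG box and 0 CAGAC cores. The Fbln5 window held 1 GC box and 2 CAGAC cores. The Efemp1 window held 1 GC box, 4 CAGAC cores and 1 match to TGANTCA, with the letters TGAATCA. Over 33469 rat windows of the same length, 30.5% held a GC box, 42.9% a CAGAC core, 6.34% a TGANTCA match and 15.9% a CACCTG box. These windows were not matched for base content. The share of G and C was 68% for Efemp2, 63.2% for Fbln5 and 61.2% for Efemp1, beside a median of 51.2% over all windows. None of the 3 windows held CATTCC or TATAAA, which were in 12.1% and 12.9% of all windows. Of the 10 genes 7 had a window in the RefSeq table used here. The window of Fbn1, which was also low on all EpiX arrays, is not shown and held 0 GC boxes and 1 CAGAC core. Those of Fbln2, Mfap2 and Mfap5, not shown either, held 3, 1 and 0 GC boxes and 0, 1 and 0 CAGAC cores. These matches are a description of the letters only.

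Among the structural proteins, Fbn1 encodes the main fibrillin of microfibrils. Its level was 5.48, 5.61 and 5.99 on the EpiX arrays, against 6.92, 9.92 and 11.68 on the BEGM arrays. The groups did not overlap, and the BEGM arrays spread over 4.76, against 0.51 for the EpiX arrays. The mean was 5.69 ± 0.27 in EpiX and 9.51 ± 2.41 in BEGM (SD, n = 3 each), a difference of -3.82 ± 1.06 (SE; 95% interval -6.34 to -1.30) or 14.1-fold lower. It did not pass (limma adjusted p = 0.0898). With the sample number as a replicate block it passed (-3.82 ± 0.76, adjusted p = 0.0425), a fit in which 2 members were called lower, Efemp2 and Fbn1, beside 4.39% of all genes.

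Eln encodes elastin itself. Its level was 7.38, 7.23 and 7.17 on the EpiX arrays, against 7.36, 8.60 and 12.35 on the BEGM arrays. BEGM array 1 lay within the EpiX range and BEGM array 3 lay far above every other array. The difference was -2.18 ± 1.14 (SE; 95% interval -4.88 to 0.52) and did not pass (limma adjusted p = 0.32). Without BEGM array 3 it was -0.72 ± 0.36.

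Mfap4, a microfibril-associated protein that binds elastin and fibrillin, had a like pattern over the arrays. Its level was 5.27, 5.12 and 4.83 on the EpiX arrays, against 5.08, 5.70 and 9.23 on the BEGM arrays. BEGM array 3 stood apart from the other 5 arrays, and BEGM array 1 lay within the EpiX range. The difference was -1.60 ± 0.99 (SE; limma adjusted p = 0.405), and -0.32 ± 0.25 without BEGM array 3.

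Mfap2 and Mfap5, the small microfibril-associated glycoproteins that decorate fibrillin, were at low signal in both media. Mfap2 was at 4.68, 4.66 and 4.37 on the EpiX arrays, against 4.57, 5.03 and 4.98 on the BEGM arrays. Its groups overlapped, and the difference of -0.29 ± 0.18 (SE) did not pass (limma adjusted p = 0.404). Mfap5 was at 4.40, 3.96 and 4.66 on the EpiX arrays, against 4.24, 4.75 and 4.62 on the BEGM arrays. It was dim on 2 EpiX arrays and 1 BEGM array, with a difference of -0.20 ± 0.23 (SE; 95% interval -0.74 to 0.34; limma adjusted p = 0.681).

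**Figure D2:**
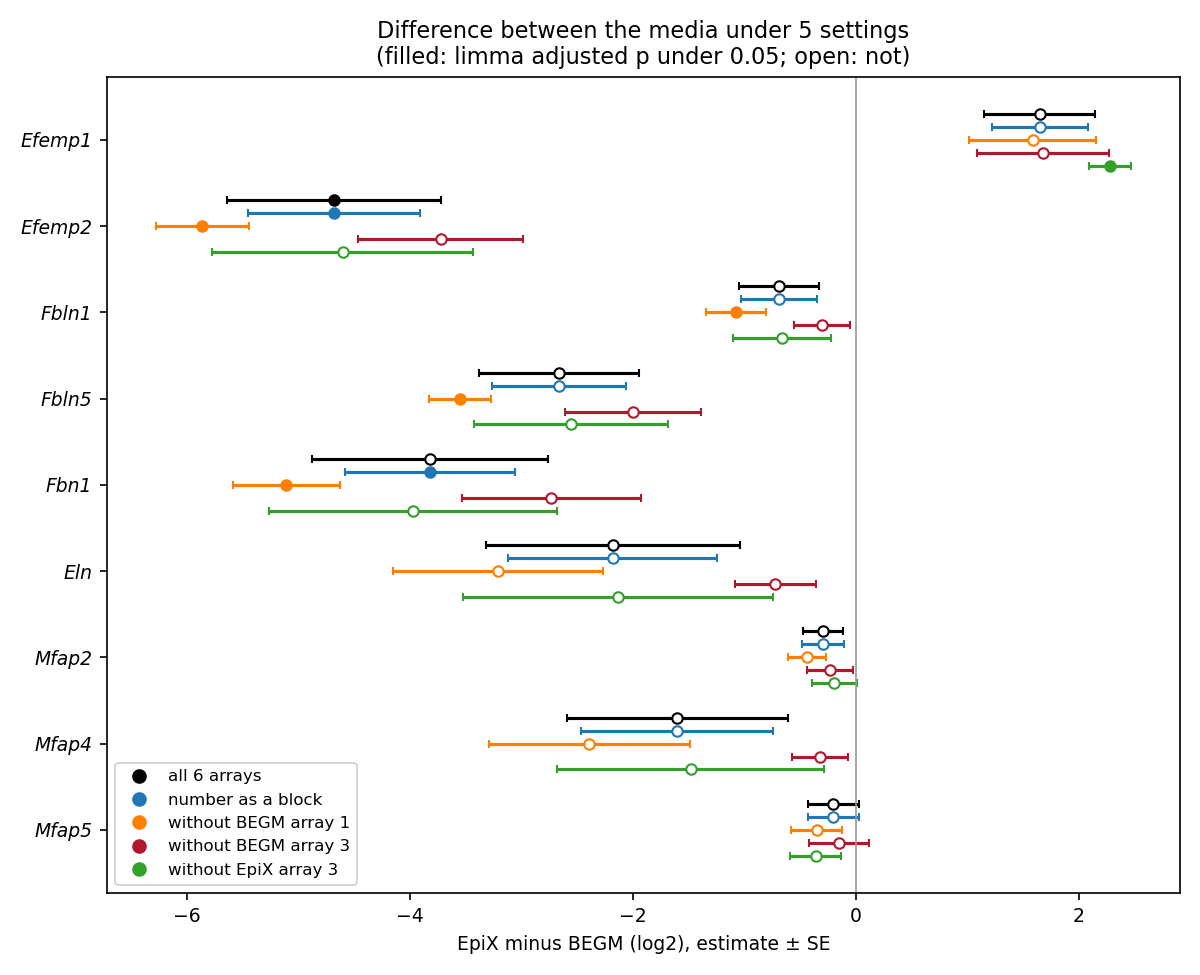
Difference between the media (EpiX minus BEGM, log2; points are estimates and bars ± SE) for the 9 measured genes, with all 6 arrays, with the sample number as a block, and without BEGM array 1, BEGM array 3 or EpiX array 3. Filled points passed limma's test over all genes. The estimates of Eln and Mfap4 lie closer to 0 without BEGM array 3, at -0.72 and -0.32, while those of Efemp2 lie between -5.86 and -3.72.

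Of the 9 members, 3 lay lower and 1 higher on all EpiX arrays than on all BEGM arrays, beside 14.5% and 13.5% of all genes. The spread lay mainly within BEGM: BEGM array 1 was the lowest BEGM array for 9 of 9 members, and BEGM array 3 the highest for 7 of 9, with array 2 the highest for Mfap2 and Mfap5. Over the 9 members the mean level was 5.77, 5.68 and 5.46 on the EpiX arrays, against 5.92, 7.23 and 8.57 on the BEGM arrays. On the first principal component of all genes, with 69.7% of the variance, BEGM array 1 (-7.24) also lay nearer to the EpiX arrays (34.2 to 53.9) than BEGM arrays 2 (-54.8) and 3 (-73.2) did. Without BEGM array 1, limma called 4 members lower, Efemp2, Fbln1, Fbln5 and Fbn1, beside 7.32% of all genes, and 0 members higher, beside 6.57%, with 7 lower and 1 higher at an unadjusted p under 0.05, beside 14.4% and 13.6%. Without BEGM array 3 it called 0 members lower, beside 2.15% of all genes, with 3 at an unadjusted p under 0.05, beside 9.9%.

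Of 10 listed fibroblast markers 9 were measured, and their mean level was 5.58, 5.60 and 6.04 on the EpiX arrays, against 6.57, 7.07 and 9.21 on the BEGM arrays, highest on BEGM array 3 as for the members. By limma 0 of the 9 were called, beside 3.15% of all genes lower and 2.63% higher. At an unadjusted p under 0.05, 4 were lower, beside 11.4% of all genes. The replicate block called 3 lower, Col1a2, Lum and Thy1, beside 4.39% of all genes. Without BEGM array 3, limma called 2 of the 9 lower, Col1a1 and Col1a2 (adjusted p = 0.0204 and 0.0235), beside 2.15% of all genes. Col1a1, a main fibrillar collagen chain, was at 5.82, 5.14 and 5.56 on the EpiX arrays, against 7.44, 8.32 and 12.34 on the BEGM arrays. The fibroblast receptor Pdgfra was at 5.10, 5.11 and 5.48 on the EpiX arrays, against 4.90, 5.88 and 9.07 on the BEGM arrays, so it too stood apart on BEGM array 3. In contrast, the adventitial fibroblast gene Pi16 and the fibroblast transcription factor gene Tcf21 differed by 0.05 and -0.21 and did not pass (limma adjusted p = 0.891 and 0.553).

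Of 7 measured smooth muscle markers, 3 fell, Acta2, Cnn1 and Lmod1, beside 3.15% of all genes called lower by limma. Lmod1 did not pass without BEGM array 3 (limma adjusted p = 0.0976). The mean level of the 7 was 6.36 to 6.59 on the EpiX arrays, against 7.59 to 8.35 on the BEGM arrays. The defining muscle genes Myh11 and Des stayed near the dim limit, at 4.09 to 4.34 on the EpiX arrays and 4.14 to 4.87 on the BEGM arrays. Cartilage markers (5 of 7 measured) averaged 4.83 to 5.04 on the EpiX arrays and 4.94 to 5.10 on the BEGM arrays. Endothelial markers (5 of 5) averaged 4.60 to 4.75 in EpiX and 5.22 to 5.52 in BEGM, and leukocyte markers (5 of 5) 5.63 to 5.83 in EpiX and 5.60 to 5.93 in BEGM. Mesothelial markers (2 of 3) averaged 10.12 to 10.82 in EpiX and 9.82 to 10.52 in BEGM, a mean over genes at very different levels. Msln was at 15.10 to 16.53 in EpiX and 14.97 to 16.11 in BEGM, and Wt1 at 4.99 to 5.37 in EpiX and 4.67 to 4.99 in BEGM. Among the last 4 lists limma called 1 gene, the leukocyte invariant chain Cd74, which was lower, as were 3.15% of all genes. Its limma adjusted p was 0.041, with 0.0526 under the replicate block and 0.0745 without BEGM array 3. The basal keratin Krt14 was at 16.75 to 17.13 in EpiX and 16.38 to 16.85 in BEGM, so this marker of the labelled cell type was bright on all 6 arrays. Tp63 of the same list was at 14.62 to 14.80 in EpiX and 12.23 to 12.93 in BEGM. Krt15 was at 14.06 to 16.34 in EpiX and 9.99 to 12.15 in BEGM. Ngfr, unlike these, lay not far above the dim limit, at 5.03 to 5.37 in EpiX and 4.69 to 4.88 in BEGM. Of 4 measured basal cell markers 2 rose, Tp63 and Krt15, beside 2.63% of all genes. Of 5 epithelial markers 1 fell, Krt18, beside 3.15% of all genes. The part of the fibroblast markers in the members' differences was not tested.

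**Figure D3:**
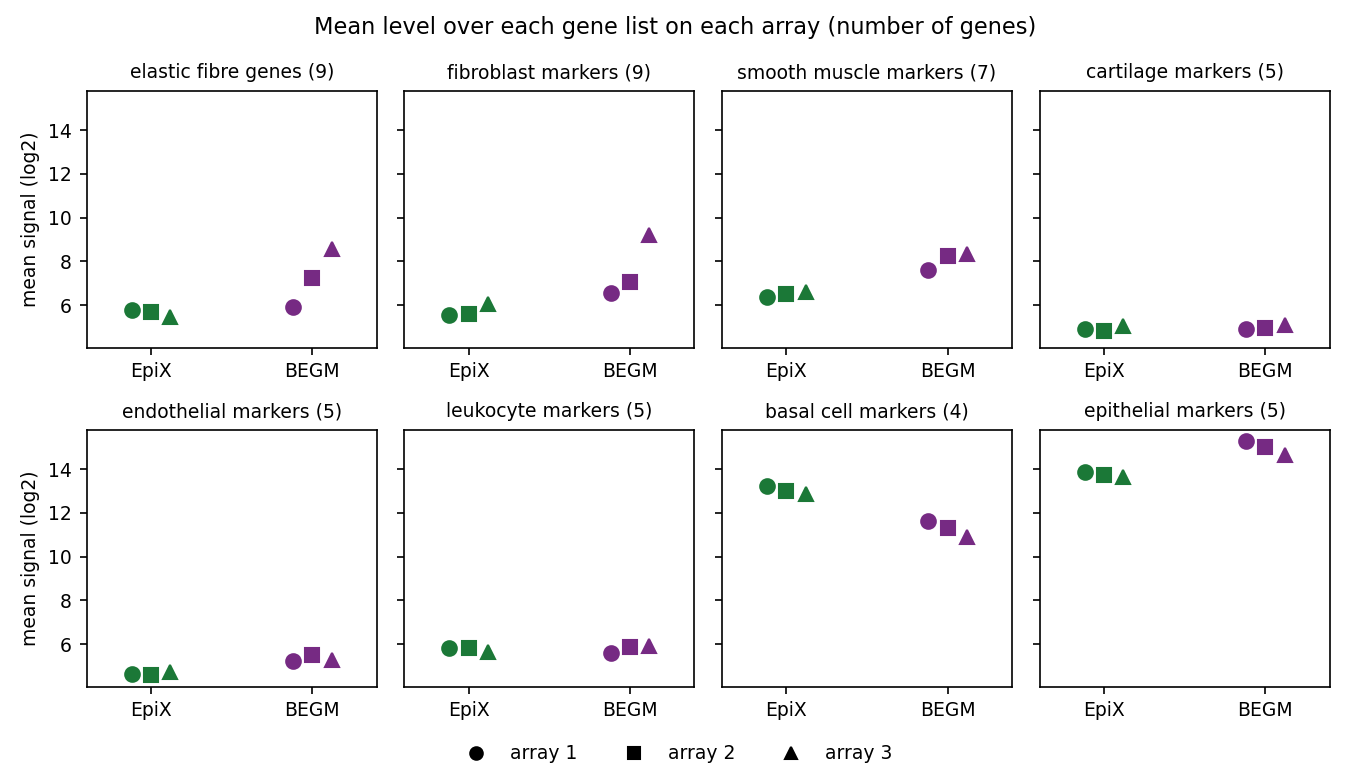
Mean signal (log2) over the measured elastic fibre genes and over each list of cell type markers except the mesothelial list, on each array. EpiX is at the left and BEGM at the right, with the number of genes in brackets. On BEGM array 3 the elastic fibre genes averaged 8.57 and the fibroblast markers 9.21, each the highest of the 6 arrays for its list.

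Genes that act with the members were followed in 6 lists with 61 genes, of which 50 were measured. By limma 15 of the 50 fell and 0 rose, beside 3.15% and 2.63% of all genes, with 25 lower and 0 higher at an unadjusted p under 0.05, beside 11.4% and 11%. The median difference over the 50 was -0.82. For each single list below, the shares of all genes beside its limma counts are likewise 3.15% lower and 2.63% higher. Of the 15 calls, 9 remained when BEGM array 3 was left out, 4 without BEGM array 2, and 3, 2 and 5 without EpiX array 1, 2 or 3. By limma 0 remained when both number 2 arrays were left out. In that fit 20 of the 50 were lower and 0 higher at an unadjusted p under 0.05, beside 837 and 745 of all 15037 genes.

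The crosslinking enzymes had the largest median difference, -2.79, with 3 of 6 measured members lower and 3 not called. The lysyl oxidase-like enzyme Loxl2 was at 4.53, 4.68 and 5.14 on the EpiX arrays, against 10.96, 12.68 and 14.00 on the BEGM arrays. Loxl1, the family member most closely tied to elastin, was at 9.48, 10.40 and 10.53 on the EpiX arrays, against 11.49, 12.59 and 13.36 on the BEGM arrays, and fell by 2.34 (SE 0.50; limma adjusted p = 0.0441, and 0.0783 without BEGM array 3). The transglutaminase Tgm2 fell by 3.24 (SE 0.54), with its highest BEGM level on array 1, at 10.21, unlike the members. Loxl3 differed by -4.47 ± 1.08 (SE; adjusted p = 0.0627) and passed with the replicate block (adjusted p = 0.0025). Lox had no named probe set.

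Among the latent TGF-beta binding proteins and TGF-beta ligands, 4 of 7 fell and 3 were not called. The ligand Tgfb2 was at 9.40, 9.78 and 9.57 on the EpiX arrays, against 12.52, 13.08 and 12.26 on the BEGM arrays, and fell by 3.04 (SE 0.23; limma adjusted p = 0.00224). The ligand Tgfb3 fell by 1.43 (SE 0.17). The binding proteins Ltbp1 and Ltbp3, which tether latent TGF-beta to microfibrils, differed by -1.94 ± 0.38 and -2.68 ± 0.51 (SE; limma adjusted p = 0.0335 and 0.0312), and neither passed without BEGM array 3 (adjusted p = 0.0606 and 0.0756). Ltbp2, which binds fibrillin, differed by -3.55 ± 1.02 (SE; adjusted p = 0.0963), and passed with the replicate block (adjusted p = 0.0407).

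Of 12 measured other microfibril-associated genes, 0 were called by limma, with 2 lower and 0 higher at an unadjusted p under 0.05, and their median difference was -0.49. The replicate block called 2 lower, Vcan and Adamts10. The largest difference was that of the fibrillin-binding proteoglycan Vcan (-2.84 ± 1.42, SE; adjusted p = 0.297, and 0.00216 with the block). Vcan was at 5.11, 8.06 and 9.44 on the EpiX arrays, against 7.88, 10.70 and 12.54 on the BEGM arrays, so the groups overlapped while the same-numbered pairs 1, 2 and 3 differed by -2.77, -2.64 and -3.10.

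Of 10 measured elastin-degrading proteases 3 fell and 7 were not called. The gelatinase Mmp2 was at 5.72, 6.21 and 6.52 on the EpiX arrays, against 8.71, 12.30 and 14.28 on the BEGM arrays, and fell by 5.62 (SE 1.25) at an adjusted p of 0.0499 by limma, which was 0.0712 without BEGM array 3. Mmp9 fell by 1.56 (SE 0.30) and the membrane-anchored Mmp14 fell by 1.48 (SE 0.18). Ctsk differed by -0.83 ± 0.56 and did not pass (adjusted p = 0.45). The macrophage elastase Mmp12 and the neutrophil elastase Elane had means below the dim limit, 4.06 and 4.24 in EpiX and 3.94 and 4.25 in BEGM, with Elane at 4.57 on EpiX array 2, and were named after their values were seen.

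Of 6 protease inhibitors, 2 fell, the collagenase inhibitor Timp1 (-2.96 ± 0.65, SE) and the cathepsin inhibitor Cst3 (-1.57 ± 0.31), and 4 were not called. Neither passed without BEGM array 3 (adjusted p = 0.0861 and 0.0731). Slpi, the airway inhibitor of leukocyte elastase, was at 10.20, 9.34 and 7.80 on the EpiX arrays, against 9.43, 6.71 and 4.55 on the BEGM arrays. Its difference of 2.22 ± 1.20 (SE) did not pass (limma adjusted p = 0.335), and it was 0.0485 with the replicate block.

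Of 9 measured receptor genes, 3 integrin chains fell and 6 genes were not called. The fibronectin and fibrillin receptor chain Itga5 was at 8.34, 8.30 and 8.30 on the EpiX arrays, against 10.65, 11.80 and 13.31 on the BEGM arrays, and fell by 3.61 (SE 0.60; limma adjusted p = 0.0211). Itgb5 fell by 2.65 (SE 0.57; adjusted p = 0.0452, and 0.0561 with the replicate block), and Itgb6, the epithelial chain that activates latent TGF-beta, fell by 1.65 (SE 0.24). Ctsa, a subunit of the elastin receptor complex, differed by -0.82 ± 0.19 and did not pass (adjusted p = 0.0562).

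**Figure D4:**
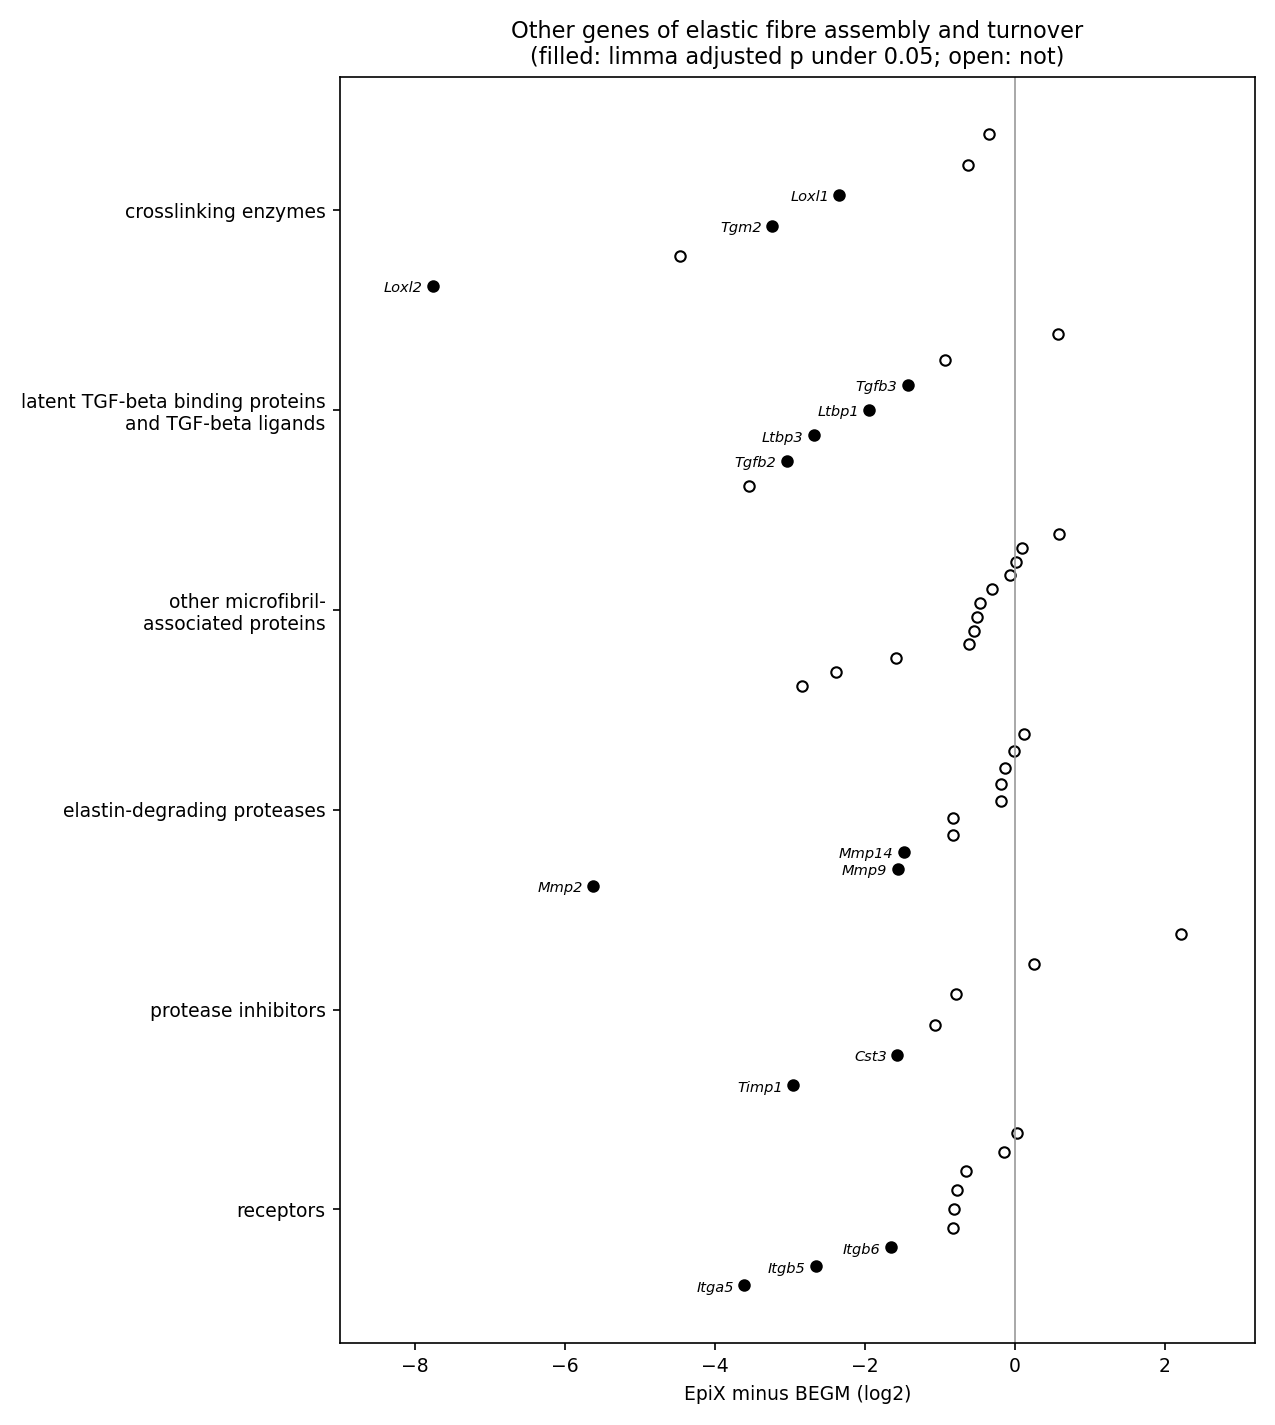
Difference between the media (EpiX minus BEGM, log2) for 50 measured genes in 6 lists of elastic fibre assembly and turnover, 1 point per gene. Filled and named points passed limma's test over all genes, and all 15 of these lie below 0, from Loxl2 at -7.76 to Tgfb3 at -1.43.

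For the 3 members with the widest range over the 6 arrays, the genes with the most alike profile were those with the smallest mean absolute difference of centred values. For Efemp2 these were Prelp (0.23), Tll1 (0.28) and Rcn3 (0.29). For Fbn1 they were Ltbp2 (0.18), Fgf7 (0.21) and Selenom (0.27), of which Ltbp2 also stands in a list above. For Eln they were Clip3 (0.23), Nptxr (0.30) and Syt17 (0.35). Prelp, a leucine-rich matrix proteoglycan, was at 5.71, 6.02 and 5.97 on the EpiX arrays, against 8.59, 11.11 and 12.04 on the BEGM arrays. Fgf7, a growth factor for epithelium, was at 5.24, 5.11 and 5.56 on the EpiX arrays, against 5.95, 9.96 and 11.26 on the BEGM arrays.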

How the data were processed

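The authors' deposited log2 signals of 24834 probe sets were used as given. The arrays followed the Affymetrix protocol, per the labels' protocols, and the Transcriptome Analysis Console was used, per the submitters' processing notes, while how background was corrected and arrays were normalized is not given in the sources used here. Log2 as the unit was read from the range of the values.

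Of the probe sets, 15049 carried 1 platform gene symbol, and all 15049 symbols matched a RefSeq gene table. The brightest was kept per gene, leaving 15037 genes. The 6 arrays were fitted with medium as the single factor in limma 3.58.1 under R 4.3.3 (lmFit, eBayes, tested on simulated data), and p-values are 2-sided with Benjamini-Hochberg adjustment over all genes (threshold 0.05). Matplotlib 3.10.9 drew the plots. The number of arrays limits the precision.

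The members, lists and motifs were chosen with earlier results of these data known. Named list genes were up to 5 called genes and the uncalled gene with the largest difference; others were named after their values were seen. Alternatives were a replicate block, quantile normalization, median centring, array weights, a filter on dim genes, averaging probe sets per gene, a variance fitted with trend and robustly, and leaving out arrays.

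Each line was divided between media, and arrays with the same sample number were taken as the same line, although no label ties a number to a line and the titles number the arrays otherwise (3 for number 2, none for number 3). Titles pair the same arrays for numbers 1 and 2. Deviations from the group means correlated over genes at 0.32, -0.01 and 0.32 for same-numbered arrays 1, 2 and 3, and at -0.37 to 0.16 for others.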

Additional observations from a re-analysis of the deposited data

How the results depend on the processing

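With the sample number as a replicate block, 2 members were called lower in EpiX and 0 higher, beside 660 and 592 of all 15037 genes. With array weights 3 members were called lower (Efemp2, Fbln5 and Fbn1) and 1 higher (Efemp1, limma adjusted p = 0.0303), beside 1031 and 956 of all 15037 genes. Quantile normalization, median centring, the filter on dim genes, the trended and robust variance and the mean of probe sets each gave 1 member lower and 0 higher by limma. Over all genes these settings called 409 to 490 lower and 395 to 560 higher. The mean of probe sets could not change the levels of the members, since each had 1 probe set. Leaving out arrays gave 0 to 4 members lower and 0 to 1 higher, beside 0 to 1101 and 0 to 988 of all 15037 genes. Of the pathway genes, array weights called 23 lower and 0 higher, and the replicate block called 18 lower and 1 higher, Slpi. Leaving out arrays gave 0 to 27 pathway genes lower and 0 to 1 higher, with fewer samples in each such fit. Over all genes limma called 869 with all 6 arrays, 1252 with the block, 1987 with array weights, 2089 without BEGM array 1, 101 without EpiX array 2, 264 when both number 3 arrays were left out, and 0 when both number 2 arrays were left out, where 1582 had an unadjusted p under 0.05. The difference of Mfap5 was -0.38 to 0.10 when both arrays of a number were left out, and turned positive (0.10 ± 0.23, SE; adjusted p = 0.909) for number 2. The filter on dim genes removed Mfap5, and no other member's difference changed sign in the 16 alternatives. The block changed no other member's call than that of Fbn1. The labels give 3 lines, each from a group of 3 rats, but tie no sample number to a line. The p-values thus measure the spread between these arrays, which may in part be technical. The cause of these changes was not tested. Each group had 3 arrays, too few to test for a single array that stands apart.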
